A study of Sus scrofa with 10 samples.

Results

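ENSSSCG00000019556 and ENSSSCG00000020439 are 2 abundant transcripts of porcine peripheral blood, named here by their Ensembl gene identifiers. They were chosen from the 12354 rows of the mRNA table as the identifiers, among the 10 rows with the highest mean FPKM over 10 libraries, that stood clearly higher at 180 days of age than at birth. FPKM corrects a fragment count for transcript length and for how many reads that library had mapped. Whole blood came from 10 healthy female Qingyu pigs, with 1 library per pig and 2 different pigs per age. Newborn (D0), suckling (D7, 7 days old), weaning (D28, 28 days), sexually mature (D180, 180 days) and adult (Y2, 2 years) pigs were sampled. The labels name no treatment, and no pig was followed over time.

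In blood, red cells and their young forms carry very large amounts of haemoglobin mRNA, while T cells, B cells, monocytes and granulocytes contribute most of the variety of other transcripts. The libraries were made from total RNA after removal of ribosomal RNA, a method that keeps RNAs with and without a poly(A) tail. FPKM expresses each RNA relative to all mapped RNA of its library, so the fall of a dominant RNA raises the FPKM of the others. In a bulk sample, fewer cells of a type and less RNA per cell cannot be told apart. Neither identifier was paired with a gene symbol in the table of gene names used here, which named 9735 of the 12354 rows. Their gene function, transcript length and genomic position were therefore not analysed here, and no sequence is given for them.

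By mean FPKM over the 10 libraries, ENSSSCG00000019556 was the 4th row of the table with 67624 FPKM and ENSSSCG00000020439 the 9th with 6207 FPKM. The last row inside the 10 was FTL, the ferritin light chain that stores iron, with 5042 FPKM. The first row outside was ENSSSCG00000018700 with 3978 FPKM, which also has no symbol. Among the other 8 rows of the 10 were HBB, the beta chain of adult haemoglobin, TPT1, an abundant growth-related protein, and FTL. Of those 8 rows, 7 had a lower mean at D180 than at D0. The remaining row, ENSSSCG00000038379, had means of 0.00571 FPKM at D0 and 0.0135 FPKM at D180 and owed its place to 3 libraries of D7 and Y2, so it is not among the pair described here.

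The more abundant transcript, ENSSSCG00000019556, stood at 19873 and 20872 FPKM in the newborn pigs, 19996 and 20332 FPKM in the D7 pigs, and 59293 and 53480 FPKM in the D28 pigs. It reached 174132 and 150540 FPKM at D180 and stood at 79993 and 77731 FPKM at Y2. In FPKM as deposited, the D7 values lay between those of the D0 pigs. Under each of 3 other scalings described further on the D7 and D0 pigs did not overlap, with D7 at 0.850, 1.20 and 1.08 times D0. From D28 on, the pigs of each age did not overlap with those of any other age, and the order of the means was D7, D0, D28, Y2 and D180.

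Its mean was 20373 ± 706 FPKM (SD, n = 2) at D0 and 162336 ± 16683 FPKM at D180, a ratio of 7.97. The step from D7 to D28 was 2.80-fold and the step from D28 to D180 was 2.88-fold. From D180 to Y2 the mean went down to 0.486 times its value, to 78862 ± 1600 FPKM. These values chose the transcript and are given as a description.

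ENSSSCG00000020439 was the less abundant of the pair in every library and had another course over the first week. Newborn pigs had 1901 and 2059 FPKM, D7 pigs 3752 and 3885 FPKM, and D28 pigs 5654 and 4094 FPKM. The D180 pigs had 13005 and 10378 FPKM and the Y2 pigs 9603 and 7737 FPKM. In FPKM as deposited, ENSSSCG00000020439 was already higher at D7 than at D0, unlike ENSSSCG00000019556. With equal summed FPKM both were higher at D7, at 2.10 and 1.08 times D0. As deposited, the pigs of neighbouring ages in the order D0, D7, D28, Y2 and D180 did not overlap. The gap between D7 and D28 was small beside the distance between the D28 pigs.

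The mean of ENSSSCG00000020439 was 1980 ± 112 FPKM (SD, n = 2) in newborn pigs, 3819 ± 93.9 FPKM a week later and 4874 ± 1103 FPKM at weaning. It was 11692 ± 1858 FPKM at sexual maturity and 8670 ± 1319 FPKM in adults. The ratio of D180 to D0 was 5.90. By step, the mean was 1.93-fold from D0 to D7, 1.28-fold from D7 to D28, 2.40-fold from D28 to D180 and 0.742-fold from D180 to Y2.

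**Figure D1:**
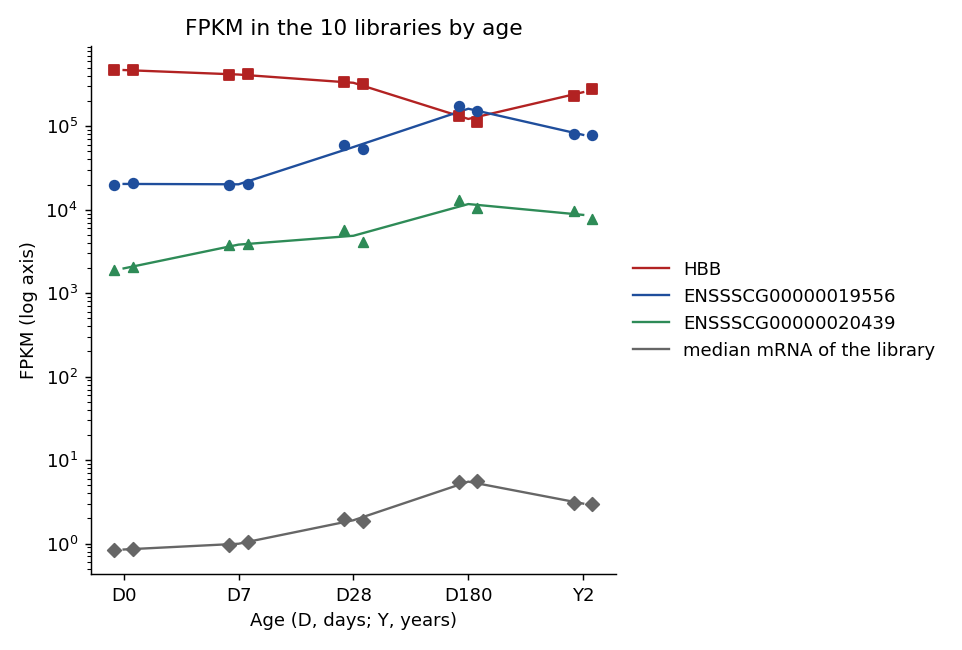
FPKM (log axis) against age (equally spaced, not to scale) for both transcripts, HBB and the median mRNA of each library, with points for pigs and lines through the means of 2 pigs. ENSSSCG00000019556 climbed from 20373 to 162336 FPKM between D0 and D180, above HBB in both D180 pigs. Between the same ages the median mRNA rose from 0.848 to 5.51 FPKM, with other steps in between.

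The standing of both transcripts within the library changed with age. ENSSSCG00000019556 was the 6th highest row in each D0 and D7 library, the 5th and 4th in the D28 pigs, the highest of all rows in both D180 pigs, and the 4th and 3rd at Y2. At D180 it exceeded HBB, which stood at 133644 and 111246 FPKM. ENSSSCG00000020439 was the 16th and 17th row in the newborn pigs, the 10th in both D7 pigs and the 9th in both D28 pigs. It was the 6th row in both D180 pigs and the 7th in both adults.

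Of the summed FPKM of the mRNA table, ENSSSCG00000019556 took 1.92% ± 0.0490 (SD, n = 2) in newborn pigs, 2.08% ± 0.0269 in D7 pigs and 5.58% ± 0.120 in D28 pigs. Its share was 21.7% ± 1.86 in D180 pigs and 8.70% ± 0.399 in adults. ENSSSCG00000020439 ran from 0.187% ± 0.00883 in newborn to 1.56% ± 0.221 in D180 pigs and 0.952% ± 0.0823 in adults. The other 8 of the 10 highest rows together went from 87.2% ± 0.695 at D0 to 44.9% ± 2.02 at D180. All remaining rows went from 10.7% ± 0.637 to 31.8% ± 0.0590. The share of ENSSSCG00000019556 grew 11.3-fold and the summed share of the remaining rows 2.98-fold, while the share of the median mRNA grew 9.22-fold. The summed FPKM itself was not constant and ranged from 738636 to 1066070 over the libraries.

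**Figure D2:**
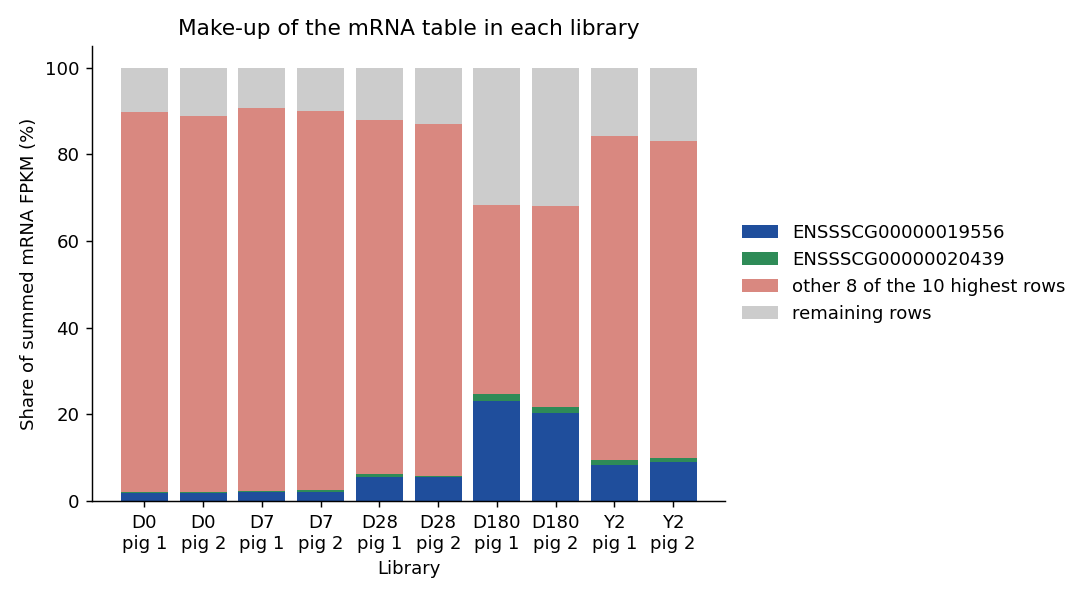
Share of the summed mRNA FPKM (%) in each of the 10 libraries, stacked from ENSSSCG00000019556, ENSSSCG00000020439, the other 8 of the 10 highest rows and all remaining rows. At D180 the other 8 rows held 43.5% and 46.3%, and ENSSSCG00000019556 held 23.0% and 20.4%.

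Between D0 and D180 the median mRNA of the library moved by a factor between those of the pair. It was 0.848 ± 0.0236 FPKM (SD, n = 2) in newborn pigs, 0.994 ± 0.0533 in D7 pigs and 1.90 ± 0.0780 in D28 pigs. In D180 pigs it was 5.51 ± 0.175 FPKM, 6.50 times the newborn value, and in adults 3.01 ± 0.0226 FPKM. For comparison, the ratio of D180 to D0 was 7.97 for ENSSSCG00000019556 and 5.90 for ENSSSCG00000020439, on either side of the median. The earlier steps differed more, since from D0 to D7 the median mRNA moved 1.17-fold against 0.990-fold and 1.93-fold for the pair, and from D7 to D28 1.91-fold against 2.80-fold and 1.28-fold.

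Divided by the median mRNA of the same library, ENSSSCG00000019556 stood at 23916 and 24149 in the newborn pigs, 20913 and 19711 in the D7 pigs, and 30322 and 28984 in the D28 pigs. The ratios of the D180 pigs were 32312 and 26706, and those of the adults 26442 and 25968. Against the median it was thus lowest at D7, highest at D28 and D180, where the pigs overlapped, and in between at D0 and Y2. The means of D180 and D0 differed 1.23-fold by this measure.

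For ENSSSCG00000020439 the ratios to the median mRNA were 2288 and 2383 in the newborn pigs, 3924 and 3766 in the D7 pigs, and 2891 and 2219 in the D28 pigs. The D180 pigs had 2413 and 1841 and the adults 3174 and 2585. The highest ratios were those of both D7 pigs, and the pigs of D0, D28 and D180 overlapped. The mean at D180 was 0.911 times that at D0, and 1.03 times without the second D180 pig. In the first week this transcript stood 1.65-fold higher against the median at D7 than at D0, while ENSSSCG00000019556 stood at 0.845 times its D0 ratio.

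**Figure D3:**
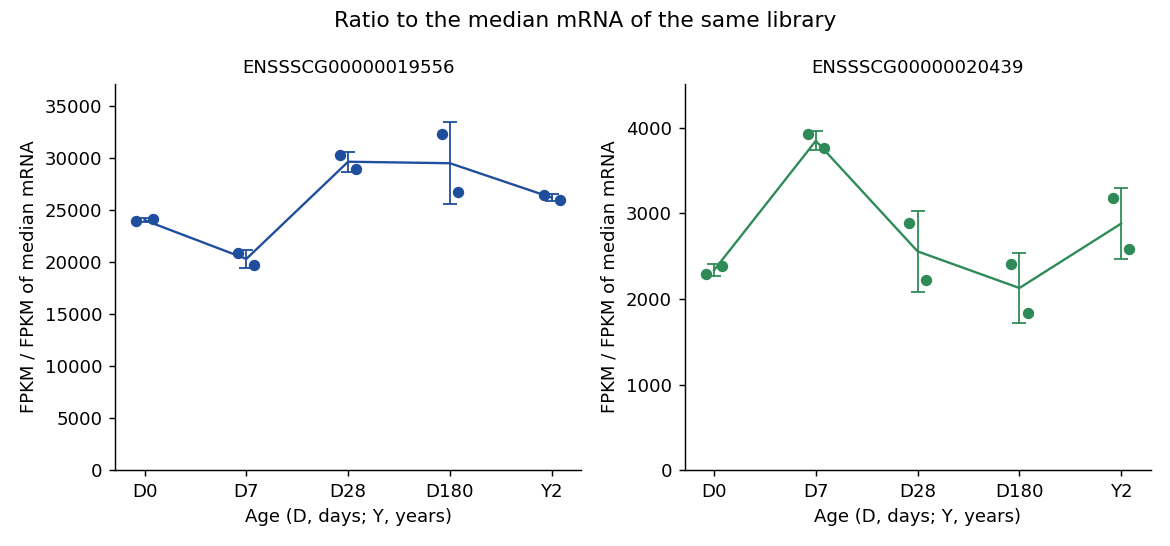
FPKM of each transcript divided by the FPKM of the median mRNA of the same library, against age (equally spaced), with points for pigs and the mean ± SD of 2 pigs. ENSSSCG00000019556 stayed between 19711 and 32312 and ENSSSCG00000020439 between 1841 and 3924, with the second highest at D7, the age where the first was lowest.

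The levels of the pair were closest to each other at D7 and furthest apart at D180. The FPKM of ENSSSCG00000019556 was 10.5 and 10.1 times that of ENSSSCG00000020439 in the D0 pigs, 5.33 and 5.23 times in the D7 pigs, and 10.5 and 13.1 times in the D28 pigs. It was 13.4 and 14.5 times in the D180 pigs and 8.33 and 10.05 times in the adults. This ratio does not depend on the scaling between libraries. Both D7 pigs lay below, and both D180 pigs above, every other pig.

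Pigs of the same age differed in ENSSSCG00000019556 by 1.02-fold at D7 to 1.16-fold at D180. In ENSSSCG00000020439 they differed by 1.04-fold at D7 and 1.08-fold at D0, but by 1.38-fold at D28, 1.25-fold at D180 and 1.24-fold at Y2. For the 9196 rows with a mean of at least 1 FPKM, the median difference between the same pigs was 1.06-fold to 1.09-fold in FPKM + 1. Adding 1 lessens the fold of low rows but hardly that of the pair, so these folds are not on the same footing. On the log2(FPKM + 1) scale, between 91.5% and 94.7% of those rows differed less than ENSSSCG00000020439 at D28, D180 and Y2. The added 1 can raise these shares. In FPKM as deposited, the pig with more of one transcript at an age also had more of the other. This was the second pig at D0 and D7 and the first at D28, D180 and Y2. Other scalings altered this at some ages. With equal summed FPKM, the Y2 pigs had 79058 and 84365 scaled units of ENSSSCG00000019556, but 9490 and 8398 of ENSSSCG00000020439. With median-of-ratios scaling the first pig was higher in both transcripts at D7 and at Y2.

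Over the mRNA table, a higher FPKM as deposited at D180 than at D0 was the usual course. Both D180 pigs lay above both D0 pigs in 93.8% of the rows. This course depended on the scaling. The median mRNA of the library at D180 was 6.50 times D0 as deposited and 9.22 times with equal summed FPKM. It was 3.09 times without the 10 highest rows, and 0.983 times with median-of-ratios scaling, which assumes that most mRNAs do not change. Of the 12087 mRNAs with a mean above 0 FPKM at both ages, the median ratio of D180 to D0 was 6.82, while 10% of the ratios lay below 2.11 and 10% above 14.8. The ratio was smaller than that of ENSSSCG00000019556 for 61.9% of them and smaller than that of ENSSSCG00000020439 for 39.9%. Both transcripts thus lay near the middle of the table.

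By the mean alone, 95.2% of all rows were higher at D180 than at D0. Of the 23 rows with a mean over 1000 FPKM, 9 had a higher mean at D180 than at D0, both transcripts included. For the 100 rows with the highest mean this number was 56 and the median ratio was 1.40, and for the highest 1000 rows it was 809 and the median ratio 4.40. ENSSSCG00000018700, just outside the 10, had means of 642 FPKM at D0 and 10116 FPKM at D180. The 99th percentile of the mRNAs stood at 178 ± 17.3 FPKM (SD, n = 2) at D0 and 259 ± 23.3 FPKM at D180, 1.45-fold, so that against this upper end of the table ENSSSCG00000019556 was 5.47-fold and ENSSSCG00000020439 4.05-fold higher at D180 than at D0. In FPKM as deposited, the order of ages of ENSSSCG00000019556 was shared by 22.0% of all rows and that of ENSSSCG00000020439 by 46.4%. The place of D7 below D0 in the first order rests on a ratio of 0.990 with overlapping pigs. For ENSSSCG00000019556 this ratio was 1.08 with equal summed FPKM, 1.20 without the 10 highest rows and 0.850 with median-of-ratios scaling.

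**Figure D4:**
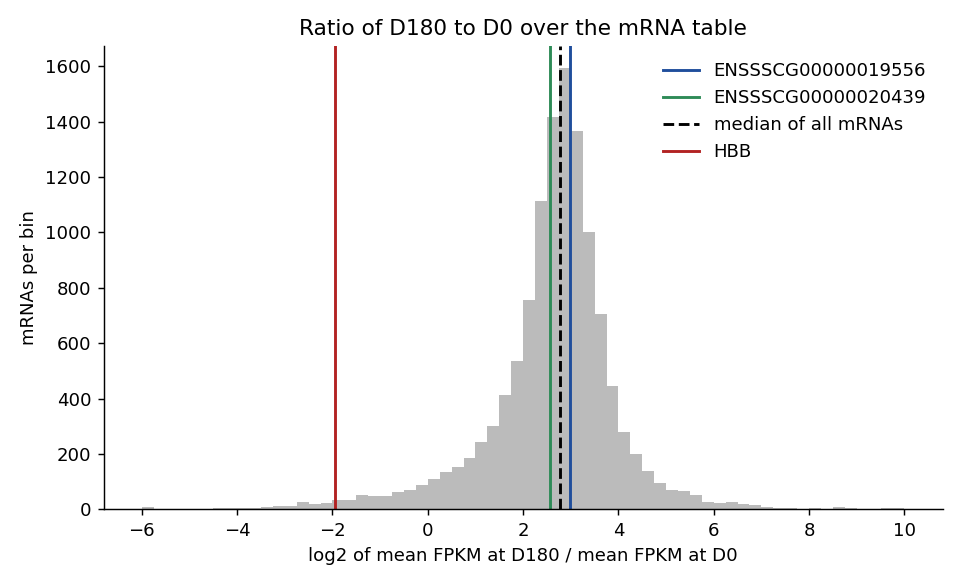
Number of mRNAs per bin against the log2 ratio of the mean FPKM at D180 to that at D0, with lines at both transcripts, HBB and the median of the 12087 mRNAs (the end bins hold all values beyond them). The lines of the pair, at ratios of 7.97 and 5.90, enclose the median of 6.82, and HBB lies on the other side of 1, at 0.259.

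Changes between ages that the choice of the pair did not compare, D7 to D28 and D28 to Y2, were tested with limma in a fit of all 5 ages to log2(FPKM + 1), with Benjamini-Hochberg adjustment over the 12354 rows. To be called, a row needed a log2 change of 1.5 or more in either direction besides an adjusted p not above 0.05. All 10 libraries had still entered the mean that placed the pair among the 10 highest rows. From D7 to D28, ENSSSCG00000019556 rose by 1.48 ± 0.17 (SE) on this log2 scale (95% confidence interval 1.09 to 1.87, limma adjusted p = 0.000101), just under the limit for a call. By the adjusted p alone, 65.3% of all mRNAs were higher at D28 and 5.9% lower, and 2.02% and 0.38% were called, 2.4% in all. The median change of all mRNAs was 0.46 on log2(FPKM + 1), where the added 1 lessens the change of low rows but hardly that of the pair. In plain FPKM the median mRNA of the library had a log2 ratio of 0.935.

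For ENSSSCG00000020439 the change from D7 to D28 was 0.33 ± 0.19 (SE, interval -0.10 to 0.77, limma adjusted p = 0.145), which did not pass. Without the second D28 pig it was 0.57 with a limma adjusted p of 0.0291. When libraries were scaled by median-of-ratios factors, which assumes that most mRNAs do not change, it was -0.59 (adjusted p = 0.048 by limma), and ENSSSCG00000019556 changed by 0.56 (adjusted p = 0.119).

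From D28 to Y2, ENSSSCG00000020439 rose by 0.84 ± 0.19 (SE, interval 0.41 to 1.28, limma adjusted p = 0.00414) and ENSSSCG00000019556 by 0.49 ± 0.17 (SE, interval 0.09 to 0.88, limma adjusted p = 0.032). Neither reached the limit for a call. The median change of all mRNAs was 0.41 on log2(FPKM + 1), again lessened by the added 1. By the adjusted p 63.9% were higher and 6.16% lower, and 2.53% and 0.898% were called, 3.42% in all. In plain FPKM the median mRNA of the library had a log2 ratio of 0.663. Divided by that median, ENSSSCG00000019556 stood at 0.884 times its D28 mean at Y2, without overlap of the pigs. By the same measure ENSSSCG00000020439 stood at 1.13 times, with overlap. The change of ENSSSCG00000019556 no longer passed when any 1 of 7 libraries was left out, namely either pig of D0, D7 or Y2 or the second pig of D28. Over the 10 libraries left out in turn, its limma adjusted p ranged from 0.0244 to 0.124. With median-of-ratios scaling its change was -0.21 (limma adjusted p = 0.589), and that of ENSSSCG00000020439 was 0.15 (adjusted p = 0.626).

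The size of the course over the ages depended on the scaling between libraries, and the direction of ENSSSCG00000020439 did as well. As deposited, ENSSSCG00000019556 was 7.97 times higher at D180 than at D0. It was 11.3 times higher when every library was given the same summed FPKM, 3.79 times when the 10 highest rows were left out of that sum, and 1.21 times with median-of-ratios scaling. For ENSSSCG00000020439 these ratios were 5.90, 8.36, 2.81 and 0.896. With median-of-ratios scaling ENSSSCG00000020439 was highest at D7, at 7483 and 7207 scaled units, while the pigs of D180, at 4530 and 3423, overlapped with those of D0, at 4348 and 4525. The median-of-ratios factors ran from 0.437 in the first D0 pig to 3.03 in the second D180 pig.

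**Figure D5:**
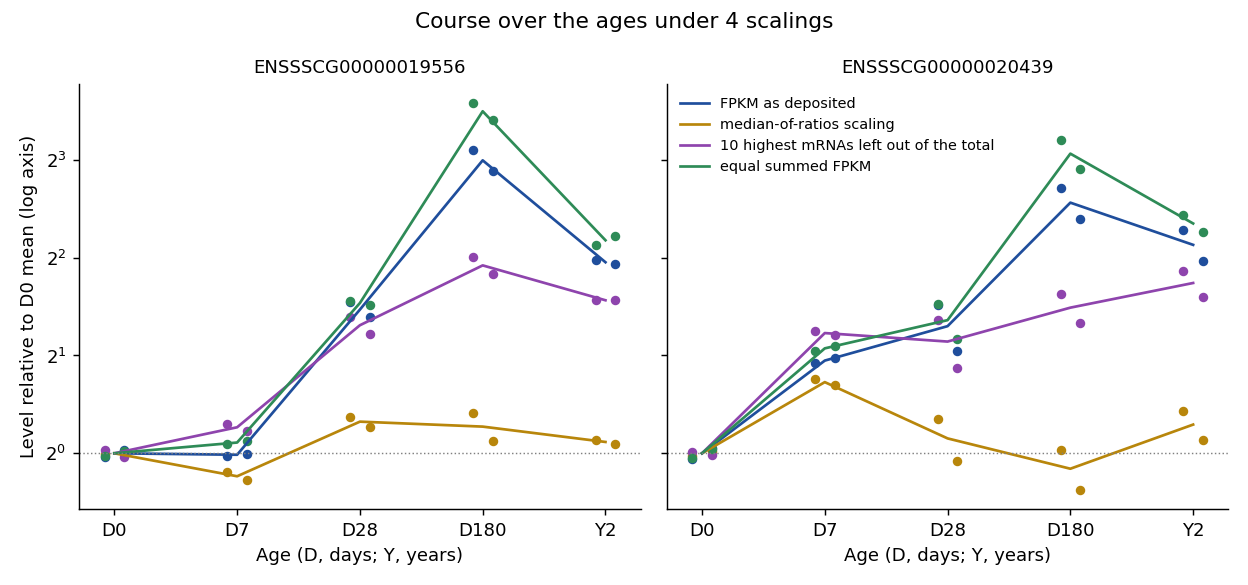
Level of each transcript relative to its D0 mean (log axis) against age (equally spaced) under 4 scalings between libraries, with points for pigs and lines through the means of 2 pigs. At D180 the lines of ENSSSCG00000019556 stand between 1.21 and 11.3, and those of ENSSSCG00000020439 between 0.896 and 8.36.

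Markers of red cells were lower where the pair was highest. Of 9 erythroid markers listed, 6 were matched to a row, HBB, ALAS2, SLC4A1, AHSP, CA1 and EPB42, and all 6 had a lower mean at D180 than at D0. Their summed level, almost all of it HBB, ranged from 476339 to 478443 FPKM at D0, from 412626 to 428884 at D7 and from 324635 to 348267 at D28. It ranged from 112723 to 135293 at D180 and from 236257 to 282062 at Y2. By the limma adjusted p, 3 of the 6 were higher and 1 lower at D28 than at D7, and 1 was higher and 4 lower at Y2 than at D28. Of all mRNAs, 65.3% were higher and 5.9% lower in the first of these comparisons, and 63.9% and 6.16% in the second. The part of these markers in the course of the pair was not tested.

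Markers of white cells followed several courses. The 4 matched T cell markers (CD3D, CD3E, CD2 and LCK) summed to between 25.8 and 33.6 FPKM at D0 and between 196 and 231 FPKM at D180, and their median ratio of D180 to D0 was 6.79. All 4 were higher at D28 than at D7 by the limma adjusted p, and 1 was lower at Y2 than at D28, where the shares of all mRNAs were 65.3% and 6.16%.

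The 4 monocyte markers (CD14, CSF1R, CD163 and LYZ) had a median ratio of D180 to D0 of 5.92. They were all lower at D28 than at D7 by the adjusted p, where ENSSSCG00000019556 was higher, and all higher at Y2 than at D28, against 5.9% and 63.9% of all mRNAs. The matched neutrophil markers, S100A8 and S100A12, summed to 74.4 to 76.4 FPKM at D0, to 3.24 to 4.62 FPKM at D28 and to 15.6 to 16.6 FPKM at D180. Both were lower at D28 than at D7 and higher at Y2 than at D28, in the directions of 5.9% and 63.9% of all mRNAs. The matched platelet markers, PPBP and GP9, summed to 112 to 116 FPKM at D0, 176 to 188 FPKM at D180 and 52.4 to 56.2 FPKM at Y2. By the adjusted p, 1 of them was lower in each comparison, as were 5.9% and 6.16% of all mRNAs. No matched marker of these lists was at 0 in any library, and their part in the course of the pair was not tested.

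Several small noncoding RNAs that every cell uses work in complexes with proteins. The mRNAs for proteins of such complexes were looked at as further lists, without tying them to either identifier. The signal recognition particle and its receptor guide new secretory proteins to the membrane. All 8 mRNAs for their proteins were higher at D28 than at D7 and at Y2 than at D28 by the limma adjusted p. Their median ratio of D180 to D0 was 5.11. Of the 7 genes of the 7SK complex and P-TEFb, which control the release of paused RNA polymerase II, 6 and 5 were higher in these comparisons, and the median ratio was 4.63.

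RNase P and RNase MRP process transfer and ribosomal RNA precursors. Of the 9 matched mRNAs for their proteins, 7 were higher at D28 than at D7 and 6 at Y2 than at D28 by the limma adjusted p. Their median ratio of D180 to D0 was 7.21. For RNA polymerase III and its factors, which make many short noncoding RNAs, the numbers were 16 and 11 of 20 with a median ratio of 7.98. For the mRNAs of the protein parts of the spliceosomal snRNPs they were 8 and 3 of 8 with a median ratio of 5.38. By the limma adjusted p, none of the genes of these 5 lists was lower in either comparison. The backgrounds were 65.3% and 63.9% of all mRNAs higher, and the median ratio of all mRNAs was 6.82.

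The rows with the most similar course were found by Pearson's r on log2(FPKM + 1) over the 10 libraries, as a description, since the libraries share their ages and the scale of FPKM. For ENSSSCG00000019556 these were H2AZ2 (r = 0.998), a histone variant, DVL2 (r = 0.998), which relays Wnt signals in the cytoplasm, and ZGPAT (r = 0.998), a zinc finger repressor of transcription. H2AZ2 stood at 3.93 and 4.04 FPKM at D0, 3.86 and 4.48 at D7, 10.1 and 9.21 in the D28 pigs, 21.4 and 20.4 in the D180 pigs, and 12.8 and 11.97 in the adults. Like ENSSSCG00000019556 it overlapped between D0 and D7 and was highest at D180. In the RefSeq annotation of the Sscrofa11.1 build, DVL2 spans 52581687 to 52590266 of chromosome 12 and ZGPAT spans 62640988 to 62652478 of chromosome 17.

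For ENSSSCG00000020439 the most similar rows were PLD3 (r = 0.992), an exonuclease of endosomes and lysosomes, POR (r = 0.990), the electron donor of cytochrome P450 enzymes, and ENSSSCG00000038608 (r = 0.989), which has no symbol. PLD3 stood at 1.09 and 1.46 FPKM at D0, 2.84 and 3.01 at D7, 4.37 and 3.15 in the D28 pigs, 9.48 and 9.01 in the D180 pigs, and 6.25 and 5.68 in the adults. It shared with ENSSSCG00000020439 the step up by D7 and the higher first pig at D28, D180 and Y2. PLD3 spans 48645347 to 48667394 of chromosome 6 and POR 10212734 to 10272184 of chromosome 3.

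Such likeness was common. Of the other 12353 rows, 46.4% had an r above 0.95 with ENSSSCG00000019556 and 8.12% with ENSSSCG00000020439. By Spearman's rho the shares above 0.95 were 16.9% and 34.1%, in the opposite order. Ranks gave many ties, with 19 rows at a rho of 1 for ENSSSCG00000019556 and 115 for ENSSSCG00000020439. Of the rows named, PLD3 was at 1, and the others lay between 0.952 for ZGPAT and 0.988 for DVL2 and POR. With median-of-ratios scaling no row had an r above 0.95, and the r of H2AZ2, DVL2 and ZGPAT was 0.181, 0.862 and 0.642. PLD3 kept an r of 0.910 with that scaling, POR 0.739 and ENSSSCG00000038608 0.260. Other rows then took most of the first 3 places. None of the rows named for ENSSSCG00000019556 stayed among its 3 most similar, and only PLD3 did so for ENSSSCG00000020439.

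Among the 5946 lncRNAs of the second table, 7.10% had an r above 0.95 with ENSSSCG00000019556 and 1.14% with ENSSSCG00000020439. The most similar to ENSSSCG00000019556 was TCONS_00166048 (r = 0.993), on chromosome 7 from 24910767 to 24911360 on the minus strand. This lncRNA overlaps the RefSeq span of SLA-DRB1, a beta chain of MHC class II. It stood at 0.00582 and 0.0787 FPKM at D0, 2.70 and 2.07 FPKM at D28 and 11.3 and 13.3 FPKM at D180. The next was TCONS_00087453 (r = 0.993), on chromosome 18 from 9421814 to 9424300 on the plus strand, which overlaps the span of SLC37A3. For ENSSSCG00000020439 they were TCONS_00091828 (r = 0.986), on chromosome 2 from 1024528 to 1025529 on the plus strand and outside RefSeq genes, and TCONS_00099614 (r = 0.979), on chromosome 2 from 410201 to 412080 on the minus strand, which overlaps DEAF1.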

How the data were processed

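Strand-specific libraries were made from peripheral blood RNA after removal of ribosomal RNA. The authors aligned reads with HISAT2 2.0.4 to Sscrofa11.1, quantified mRNAs with StringTie 1.3.3, assembled lncRNAs with StringTie and programs of Cufflinks 2.2.1, and deposited FPKM values. The mRNA table keeps rows above 0.5 FPKM, and the lncRNA table rows above 0.1 FPKM, in at least 1 library. The files give no read counts, so the depth behind each FPKM is unknown, and 2 pigs per age limit the precision.

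Ages and pig numbers came from the labels, where nothing says that equal numbers share a litter or batch. Two-sided tests on log2(FPKM + 1) with 5 ages in the fit used limma 3.58.1 (R 4.3.3) with a mean-variance trend. The pseudocount of 1 lessens the change of low rows. The fit was tested on simulated data. Other steps used Python 3.11.15 with pandas 2.3.3. The test the authors used for mRNAs is not given in the sources used here.

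Symbols came from a table of Ensembl identifiers, gene positions from RefSeq and lncRNA positions from the deposited table, all on Sscrofa11.1. The text names the pair, the 10 highest rows and the one below, the 3 mRNAs and 2 lncRNAs most like each, and listed genes. The list of B cell markers holds an item that is not reported here, so the list was left out. The pair, the lists and the tests were chosen with earlier results of these data known. Alternatives were a pseudocount of 0.1, 3 other scalings, keeping only rows that reach 1 FPKM in 2 or more libraries, limma without the trend or with only the ages compared, the pig number as a block, and each library left out.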

Additional observations from a re-analysis of the deposited data

How the results depend on the processing

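The change of ENSSSCG00000019556 from D7 to D28 (1.48) passed an adjusted p of 0.05 in limma under every alternative except median-of-ratios scaling, where it was 0.56. Without single libraries it ran from 1.41 to 1.56, and it exceeded the limit of 1.5 only without the second D28 pig. Its change from D28 to Y2 (0.49) no longer passed with a pseudocount of 0.1 (0.49, adjusted p = 0.102), with the 10 highest rows left out of the total (0.26, adjusted p = 0.198) or with only those ages fitted (0.49, adjusted p = 0.414). It was -0.21 with median-of-ratios scaling, and without single libraries ran from 0.41 to 0.56. For ENSSSCG00000020439, the change from D7 to D28 (0.33) was -0.59 with median-of-ratios scaling and -0.11 with the 10 highest rows left out, and ran from 0.10 to 0.57 without single libraries. Its change from D28 to Y2 was 0.15 with median-of-ratios scaling.

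With the pig number as a replicate block, the change of ENSSSCG00000019556 from D28 to Y2 was 0.49 with an adjusted p of 0.0761, and the other calls on the pair were not altered. Deviations of same-numbered pigs from their age means had an r between -0.102 and 0.0870 over 10 pairs of ages. These values showed no clear likeness between same-numbered pigs. With so few pigs per age, they cannot tell whether equal numbers share a litter or batch.

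The ratio of D180 to D0 was 1.21, 3.79 and 11.3 for ENSSSCG00000019556, and 0.896, 2.81 and 8.36 for ENSSSCG00000020439, under median-of-ratios factors, without the 10 highest rows and with equal sums. Relative to the median mRNA, the ratio of ENSSSCG00000020439 ran from 0.788 to 1.03 without single libraries, being 1.03 without the second D180 pig.

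From D7 to D28, 249 mRNAs were called higher and 47 lower. The numbers were 1269 and 168 with a pseudocount of 0.1, 58 and 225 with median-of-ratios scaling, and 125 and 100 with the 10 highest rows left out. From D28 to Y2, 312 were called higher and 111 lower, against 1114 and 224 with the smaller pseudocount and 96 and 254 with median-of-ratios scaling. The causes were not tested.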
